A study of Mus musculus with 16 samples.

Results

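The cytosolic ribosomal protein genes were followed across the 4 groups of a stroke study in mouse microglia/macrophages. They were taken by symbol: names that begin with Rpl or Rps and a digit, together with Rplp0, Rplp1, Rplp2 and Rpsa, without the S6 kinases and without symbols marked as pseudogenes. Of 32166 genes counted, 92 had such a symbol and 89 had at least 10 counts in at least 3 of the 16 libraries. Of these 89 members, 77 code for canonical ribosomal proteins, 46 of the large and 31 of the small subunit, and 12 are near copies of another member or carry the name for another reason. Nearest to the limit, Rpl39l was the member with the fewest counts (103 over all libraries), while Rpl3l (26), Rpl32l (36) and Rps23rg1 (10) were left out.

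MCAO, the transient occlusion of the middle cerebral artery, is a model of ischemic stroke with reperfusion. Male C57BL/6 mice aged 10 to 12 weeks had MCAO or sham surgery, and on day 3 microglia were isolated from the brain and their RNA was sequenced. Vdr-cKO mice (Cx3cr1CreER/+; Vdrf/f) lose the vitamin D receptor gene after tamoxifen in cells that express Cx3cr1, which are microglia and also other macrophages and monocytes, while control mice are Vdrf/f littermates without the recombinase. The paper's methods state that the mice were given tamoxifen before surgery and name no genotype as an exception. There were 4 libraries from MCAO Vdr-cKO mice, 4 from MCAO control mice, 3 from sham Vdr-cKO mice and 5 from sham control mice. All mice carried the floxed Vdr alleles, and the Vdr-cKO mice alone also lacked 1 working copy of Cx3cr1, so the loss of Vdr and that of the Cx3cr1 allele cannot be told apart.

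A library held 13795946 to 17836796 counts in genes. Cx3cr1 stood at 815 to 1046 CPM in MCAO Vdr-cKO against 2211 to 2309.7 CPM in MCAO control libraries and at 1416 to 3093 CPM in sham Vdr-cKO against 4508 to 5469.8 CPM in sham control libraries, and within each surgery no Vdr-cKO library reached the level of a control library. Vdr was not lower in the libraries labelled Vdr-cKO (3.65 ± 3.15 against 2.38 ± 0.925 CPM after MCAO, SD, n = 4 each). Its counts cover the whole gene and not the floxed part alone, so they do not test the deletion. Levels here are in CPM, gene counts scaled to library size with TMM factors over all 16 libraries. All 8 microglial markers examined, among them P2ry12 and Tmem119, were detected, with summed levels of 12387 to 15985 CPM in MCAO Vdr-cKO, 16257 to 17819.7 CPM in MCAO control, 21402 to 23433 CPM in sham Vdr-cKO and 23635 to 29813 CPM in sham control libraries. This sum includes Cx3cr1, which Vdr-cKO mice lack in 1 copy, so it does not compare microglial content between genotypes. In each genotype 3 of the 8 were higher after MCAO than after sham surgery and the others lower. The 8 monocyte markers summed to 1516 to 4157 CPM in MCAO Vdr-cKO and 2513 to 3844 CPM in MCAO control libraries, against 148 to 173 CPM in sham Vdr-cKO and 105 to 216 CPM in sham control libraries, and 1 of them was at 0 in all sham Vdr-cKO libraries. In bulk RNA, fewer cells of a type and less RNA per cell cannot be told apart.

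The cytosolic ribosome translates mRNA into protein. Its small subunit reads the mRNA and its large subunit joins the amino acids, and each is built in the nucleolus from ribosomal RNA and one copy of most of the proteins named here. The mRNAs of ribosomal proteins begin with a C followed by a run of pyrimidines, the 5′ terminal oligopyrimidine (TOP) motif, through which mTORC1 and LARP1 control their translation and stability as a group. Macrophages that enter growth or division raise ribosome production, which draws on RNA polymerase I, assembly factors and the ribosomal protein genes.

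The sequences around the annotated start sites are shown because a TOP motif would begin at the start of the mRNA. They also set side by side members that changed most, least or in the other direction. Each line holds 15 bases before and 15 bases from the RefSeq start site (GRCm38.p6), with the longest run of at least 6 pyrimidines in capitals. A marked run need not be a TOP motif. In Rps27l it lies wholly before the annotated start, and Rpsa and Rpl7l1 have no run of 6. Rps6, Rpl38, Rps26 and Rpsa rose after MCAO, Rps27l was the near copy with the largest rise, Rps10 fell in control mice, and Rpl7l1 is a near copy with no call.
Rps6 (chr4:86857353-86857382, minus strand): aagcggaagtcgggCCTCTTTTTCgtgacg
Rpl38 (chr11:114668565-114668594, plus strand): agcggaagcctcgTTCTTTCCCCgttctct
Rps26 (chr10:128626492-128626521, minus strand): gtcgggcaagccgccggaTCCTCTTTCgag
Rpsa (chr9:120127751-120127780, plus strand): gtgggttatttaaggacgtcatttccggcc
Rps10 (chr17:27635230-27635259, minus strand): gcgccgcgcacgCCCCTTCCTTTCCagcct
Rps27l (chr9:66946071-66946100, plus strand): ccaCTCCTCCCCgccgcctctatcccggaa
Rpl7l1 (chr17:46782642-46782671, minus strand): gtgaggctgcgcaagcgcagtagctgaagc

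RefSeq promoters were found for 57 of the 77 canonical members and 8 of the 12 others. Runs of at least 8 pyrimidines were sought within the 30 bases around the start, on the strand that reads as the mRNA. Runs that lay wholly before the start were counted too. Such a run was found in 23 of the 57 canonical members (40.4%) and in 2 of the 8 others, against 12% of all 32851 promoters. The letters CTTCCG, on either strand of the 300 bases from 250 before to the first 50 of the gene, were in 40 of the 57 (70.2%) and 4 of the 8, against 16.9% of all promoters. These letters are the core that ETS family factors recognize, and they can overlap a pyrimidine run. Among the members shown above, Rps10 has a run of 13 bases and Rpsa none of 6. These members are few and were partly chosen by their changes, so they cannot show whether runs go with direction.

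After MCAO the ribosomal protein genes were about 2-fold higher than after sham surgery, in both genotypes and in both subunits. With gene levels tested by edgeR's quasi-likelihood test and p-values adjusted over all genes tested by the Benjamini-Hochberg method, 79 of 88 members tested rose and 0 fell in Vdr-cKO mice, with a median log2 fold change of 1.17. In the same comparison 29.3% of the 16357 genes tested rose and 28.8% fell, with a median of -0.02. In control mice 80 of 88 members rose and 1 fell, with a median log2 fold change of 1.02, where 31.2% of 16089 genes rose, 32.3% fell and the median was -0.05. Every MCAO library lay above every sham library for 77 of the 88 members in Vdr-cKO mice, against 30.1% of all genes tested, and for 77 of the 88 in control mice, against 28.3% of all genes tested. No member was lower at an unadjusted p under 0.05 in Vdr-cKO mice, and DESeq2 and limma-voom also called 0 lower there.

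Among the canonical members, 43 of 46 large subunit and 30 of 31 small subunit genes rose in Vdr-cKO mice (medians 1.21 and 1.17). In control mice 46 of 46 large subunit genes rose (median 1.00), as did 29 of 31 small subunit genes, while 1 of these fell (median 1.06). In all, 72 of the 77 rose in both genotypes, 3 in control mice alone and 1 in Vdr-cKO mice alone. The fold change lay between 1.5 and 3 for 69 of the 77 in Vdr-cKO mice and for 71 in control mice. Large subunit genes together took 1.18 ± 0.0727% of all gene counts in MCAO Vdr-cKO and 0.626 ± 0.00595% in sham Vdr-cKO libraries (SD, n = 4 and 3), and 1.12 ± 0.0463% in MCAO control and 0.641 ± 0.0650% in sham control libraries (SD, n = 4 and 5). For small subunit genes the shares were 0.841 ± 0.0494% in MCAO Vdr-cKO against 0.431 ± 0.00623% in sham Vdr-cKO libraries, and 0.823 ± 0.0330% in MCAO control against 0.439 ± 0.0413% in sham control libraries.

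**Figure D1:**
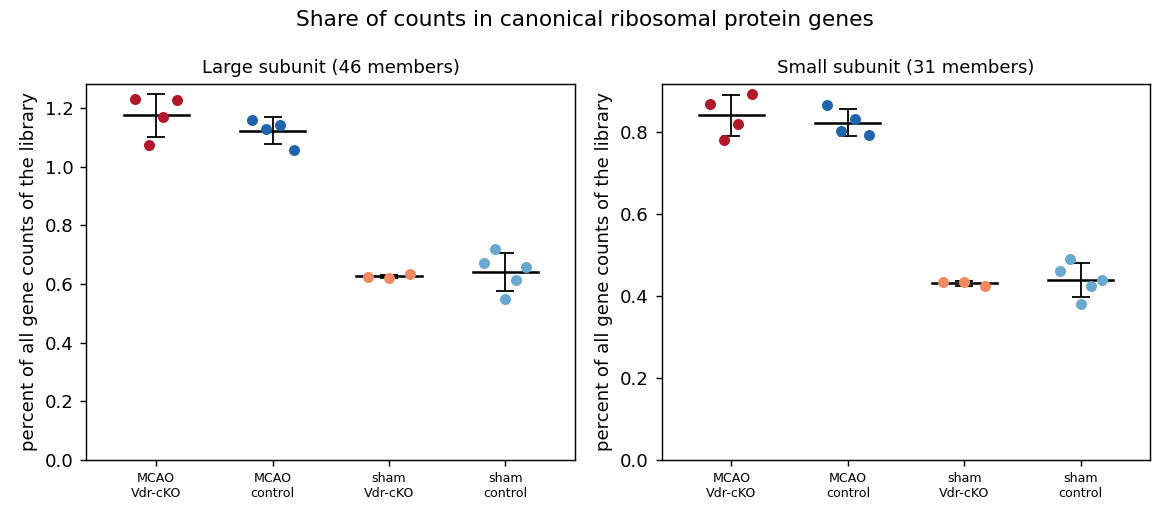
Share of all gene counts of a library, in percent, that fell in the 46 canonical large subunit genes (left) and the 31 canonical small subunit genes (right), 1 point a library, with the group mean as a line and the SD as a bar. In both panels all MCAO libraries lie above all sham libraries, and the sham control libraries spread more widely than the sham Vdr-cKO libraries.

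The 8 libraries from MCAO mice put 1.87% to 2.16% of their counts in the 89 members and the 8 from sham mice 0.949% to 1.23%. Rows with pseudogene symbols, which the rule left out and which can take reads of their parent genes, held 0.0908 ± 0.00479% in MCAO Vdr-cKO against 0.0477 ± 0.00175% in sham Vdr-cKO libraries, and 0.0957 ± 0.00319% in MCAO control against 0.0495 ± 0.00320% in sham control libraries. Sequence shared with such copies makes the level of many members uncertain. Of the 50-base words in a canonical member's annotated principal transcript, a median of 48.3% occurred in no other gene, and in Rps27 1.35% did. Where several transcripts ranked alike the longest was taken, and those taken had 345 to 5179 bases. Whether they are the ones expressed was not tested. The 37 canonical members with at least 50% of such words unique all rose in both genotypes (medians 1.25 in Vdr-cKO and 1.06 in control mice). Of the 40 members with fewer, 36 rose in Vdr-cKO mice (median 1.07) and 38 rose and 1 fell in control mice (median 1.00).

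The summed level of the monocyte markers was also higher after MCAO in both genotypes. The MCAO Vdr-cKO library with the highest summed monocyte level (replicate 1, 4157 CPM) and that with the lowest (replicate 4, 1516 CPM) had 2.12% and 2.16% of their counts in members. Replicate 2, with 3083 CPM of monocyte markers, had the lowest share of the 4, 1.88%. In MCAO control mice replicate 1 had the highest sum (3844 CPM) and the highest share (2.05%). There replicate 3, with the lowest sum (2513 CPM), had 2.01%. In sham control mice replicate 2 was highest in both (216 CPM, 1.23%) and replicate 3 lowest in both (105 CPM, 0.949%). The sham Vdr-cKO libraries all had a share of 1.08%. The part of cells other than microglia in the rise was not tested. The names of the 5 sham control columns alone end in a read file suffix, so a difference in handling of that group cannot be told apart from it, while the rise in Vdr-cKO mice rests on no library of that group.

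Rplp0, Rplp1 and Rplp2 form the stalk of the large subunit, which recruits elongation factors. Rplp0 had the highest mean level of all members, with 992, 881, 839 and 909 CPM in MCAO Vdr-cKO libraries against 303, 311 and 299 CPM in sham Vdr-cKO libraries. In control mice it stood at 933, 886, 934 and 866 CPM after MCAO against 311, 337, 273, 315 and 292 CPM after sham. All 8 MCAO libraries were above all 8 sham libraries, with little spread within groups. The log2 fold change was 1.57 (standard error 0.10, edgeR adjusted p = 6.39e-07) in Vdr-cKO and 1.54 (standard error 0.07, edgeR adjusted p = 5.15e-09) in control mice.

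The partners of Rplp0 on the stalk had smaller log2 fold changes. Rplp1, the member with the highest level per kilobase of transcript (797 CPM per kb), had 619.9, 365, 553 and 518 CPM in MCAO Vdr-cKO against 261, 245 and 329 CPM in sham Vdr-cKO libraries. In control mice it had 492, 477, 457 and 446 CPM after MCAO against 347, 384, 201, 329 and 333 CPM after sham. The MCAO and sham libraries of each genotype did not overlap, but the lowest and highest sham control libraries lay further apart than the means of the MCAO control and sham control groups. The log2 fold changes were 0.88 (edgeR adjusted p = 0.00131) in Vdr-cKO and 0.53 (edgeR adjusted p = 0.00622) in control mice. For Rplp2 they were 1.23 in Vdr-cKO (edgeR adjusted p = 9.79e-05) and 0.79 in control mice (edgeR adjusted p = 8.2e-05).

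Rpsa, a small subunit protein also known as the laminin receptor precursor (chromosome 9, 120127689 to 120132369, ENSMUSG00000032518 on GRCm38), had the largest log2 fold change of all members in control mice. Its levels were 717, 733, 636 and 699.7 CPM in MCAO Vdr-cKO libraries against 226, 220.2 and 192 CPM in sham Vdr-cKO libraries. In control mice they were 804, 698, 779 and 716 CPM after MCAO against 217, 216, 204, 207 and 189.5 CPM after sham. No library of either surgery came near those of the other. Rpsa was 3.26-fold higher in Vdr-cKO (log2 1.71, standard error 0.10, edgeR adjusted p = 5.33e-07) and 3.56-fold higher in control mice (log2 1.83, standard error 0.07, edgeR adjusted p = 1.29e-09). By 2-sided exact permutation tests the difference had p = 0.0286 in Vdr-cKO and p = 0.00794 in control mice, the smallest values these group sizes allow.

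Rps2, which lines the path by which mRNA enters the small subunit, was close behind. It had 597, 433, 495 and 521 CPM in MCAO Vdr-cKO against 154, 147 and 166 CPM in sham Vdr-cKO libraries. In MCAO control libraries it had 584, 512, 556 and 555 CPM, against 179, 179.7, 127, 159 and 166 CPM in sham control libraries. Groups did not overlap, and the log2 fold changes were 1.71 in Vdr-cKO (edgeR adjusted p = 1.34e-06) and 1.74 in control mice (edgeR adjusted p = 1.97e-08). Rps19 and Rps26, in which human mutations cause Diamond-Blackfan anemia, rose by 1.61 and 1.76 on the log2 scale in Vdr-cKO and by 1.57 and 1.55 in control mice. Rpl29, a large subunit protein, rose by 1.45 in Vdr-cKO and 1.60 in control mice.

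**Figure D2:**
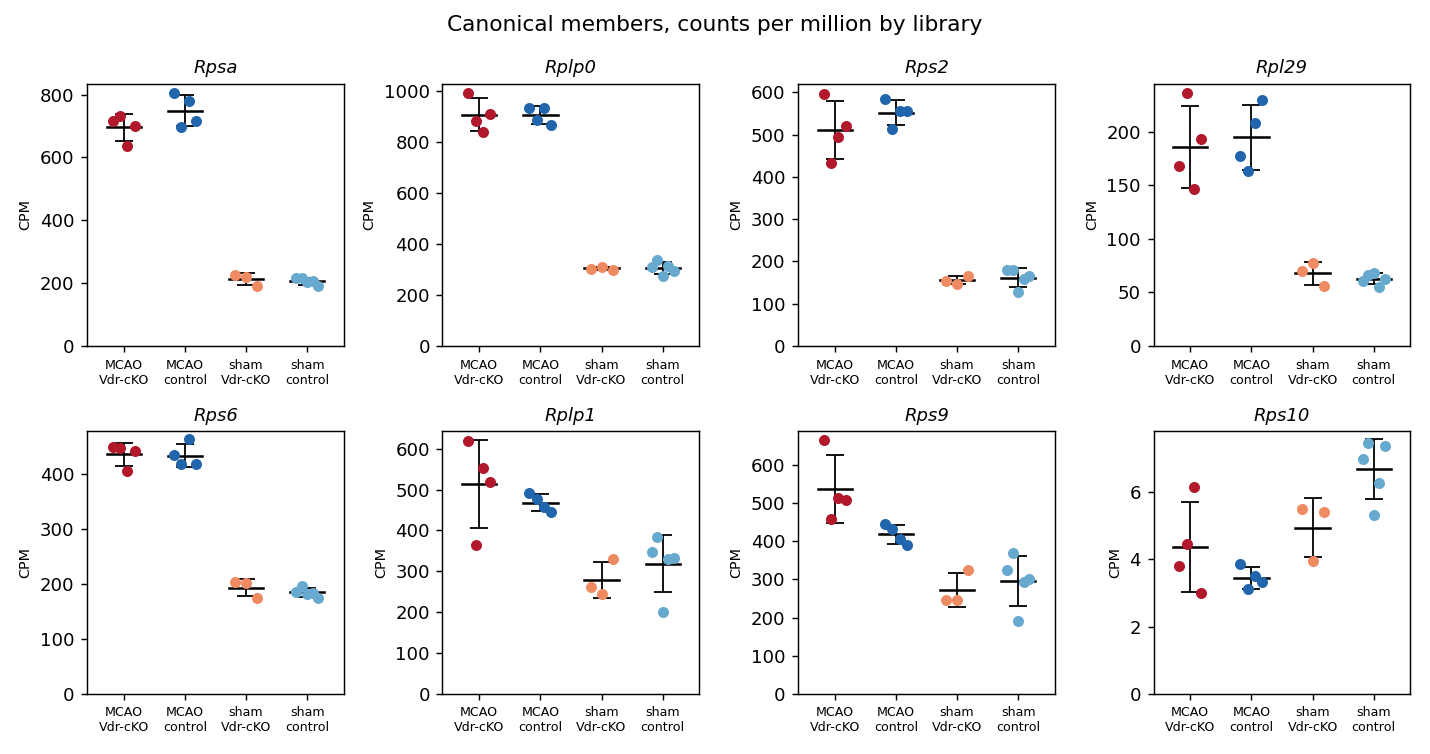
Levels (CPM, linear axes from 0) of 8 canonical members in each library, with the group mean as a line and the SD as a bar. Rpsa, Rplp0, Rps2, Rpl29 and Rps6 show 2 separate bands for MCAO and sham libraries, Rps9 a narrower gap, and Rplp1 a gap within each genotype but not across them (MCAO Vdr-cKO replicate 2 at 365 CPM, sham control replicate 2 at 384 CPM). Rps10 shows lower levels in MCAO control than in sham control libraries.

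Rpl17, at the exit tunnel of the large subunit, had the largest log2 fold change of all members in Vdr-cKO mice (1.77, standard error 0.14), with 153, 147, 189 and 128 CPM in MCAO Vdr-cKO against 51.6, 43.7 and 40.2 CPM in sham Vdr-cKO libraries. In control mice, with 118, 105, 147 and 168 CPM after MCAO against 47.3, 54.4, 75, 42.1 and 63.1 CPM after sham, it was 1.22 (standard error 0.17). Rpl38, a large subunit protein needed for the translation of Hox mRNAs in mouse embryos, rose by 1.63 in Vdr-cKO and 1.23 in control mice. Rpl39, which lines the exit tunnel, rose by 1.23 in Vdr-cKO and 1.46 in control mice.

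Several members have functions outside or beyond the core of translation. Rps6, the small subunit protein that S6 kinases phosphorylate, had 449, 447, 404 and 442 CPM in MCAO Vdr-cKO against 204, 201 and 174 CPM in sham Vdr-cKO libraries. In control mice it had 434, 417, 463 and 419 CPM after MCAO against 186, 196, 181, 184 and 174 CPM after sham. These groups were well separated, with log2 fold changes of 1.17 in Vdr-cKO (edgeR adjusted p = 3.44e-06) and 1.21 in control mice (edgeR adjusted p = 1.41e-08). Rps3, which also acts in DNA repair, rose by 1.13 in Vdr-cKO and 1.01 in control mice. Rpl5 and Rpl11, which bind Mdm2 together with 5S rRNA when ribosome assembly fails, rose by 0.89 and 1.05 in Vdr-cKO and by 0.96 and 0.69 in control mice. Rpl10, which joins the large subunit late in its assembly, rose by 1.04 in Vdr-cKO and 1.11 in control mice. The large subunit protein Rpl10a rose by 0.92 in Vdr-cKO and 0.88 in control mice. Rpl22, which is dispensable for translation but needed by developing T cells in mice, rose by 1.07 in Vdr-cKO and 0.92 in control mice.

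After Rplp0 the members with the highest mean CPM were Rpl4, Rpl10, Rpsa and Rpl3, of which Rpl4 and Rpl3 belong to the core of the large subunit. Rpl4 had 656 ± 12.9 CPM in MCAO Vdr-cKO against 342 ± 10.6 CPM in sham Vdr-cKO libraries, and 682 ± 24.2 CPM in MCAO control against 338 ± 21.8 CPM in sham control libraries (SD, n = 4, 3, 4 and 5). Rpl3 had 541 ± 30.1 CPM in MCAO Vdr-cKO against 297 ± 12.9 CPM in sham Vdr-cKO libraries, and 612 ± 27.6 CPM in MCAO control against 304 ± 9.61 CPM in sham control libraries. Both rose in each genotype, by 0.94 and 0.86 on the log2 scale in Vdr-cKO and by 0.99 and 0.98 in control mice.

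The smallest rises among canonical members with separate groups were those of Rps9, Rplp1, Rpl36 and Rps15 in control mice and of Rps4x, Rpl13a, Rpl3, Rplp1 and Rpl5 in Vdr-cKO mice. Rps9, a small subunit protein at the mRNA entry, had 445, 431, 406 and 390.3 CPM in MCAO control against 324, 369.7, 191, 292 and 301 CPM in sham control libraries. The lowest MCAO control library stood just above the highest sham control library. The log2 fold change was 0.47 (standard error 0.14, edgeR adjusted p = 0.0118). In Vdr-cKO mice Rps9 had 664, 459, 513 and 508 CPM after MCAO against 246, 247 and 324 CPM after sham, with a wider gap and a log2 fold change of 0.97 (standard error 0.15). Rpl36 and Rps15 rose by 0.60 and 0.60 in control mice, and by 1.23 and 1.01 in Vdr-cKO mice. Rps4x, coded on the X chromosome, rose by 0.79 in Vdr-cKO and 0.94 in control mice.

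Single libraries stood lower or higher than their group across many members. Of the 77 canonical members, 53 had their lowest sham control level in replicate 3 and 60 had their highest in replicate 2. The median deviation of the canonical members from the mean of their group was -0.25 in replicate 3 and 0.19 in replicate 2 on the log2 scale, against -0.00 to 0.06 in the other 3. In MCAO Vdr-cKO mice, 49 of the 77 had their lowest level in replicate 2, where the median deviation was -0.16. Without sham control replicate 3, 80 members rose and 1 fell in control mice, and without MCAO Vdr-cKO replicates 1 and 2 together 79 rose in Vdr-cKO mice.

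The 5 canonical members that did not rise in both genotypes were Rps10, Rps27a, Rpl7a, Rpl23a and Rpl24. Rps10, a small subunit protein in which human mutations also cause Diamond-Blackfan anemia (chromosome 17, 27630418 to 27636669, ENSMUSG00000052146), had a level of 5.60 CPM per kb, above that of Rpl24 and below those of all other canonical members. It had 3.86, 3.11, 3.51 and 3.31 CPM in MCAO control against 6.99, 7.44, 5.32, 6.27 and 7.37 CPM in sham control libraries. All 4 MCAO control libraries were below all 5 sham control libraries, and Rps10 fell (log2 fold change -0.98, standard error 0.17, edgeR adjusted p = 0.000314). In Vdr-cKO mice it had 3.80, 4.45, 6.15 and 3.00 CPM after MCAO against 5.49, 3.94 and 5.40 CPM after sham, groups that overlapped (log2 fold change -0.18, standard error 0.26, edgeR adjusted p = 0.572). The difference between the genotypes did not pass the test (interaction 0.79, edgeR adjusted p = 0.209). In Rps10, 43.2% of the 50-base words were unique.

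Rps27a, made as a fusion of ubiquitin and a small subunit protein, varied widely within groups. Its levels were 186, 90.7, 79.3 and 264 CPM in MCAO Vdr-cKO against 87.8, 49.0 and 55.7 CPM in sham Vdr-cKO libraries, and 89.0, 76.3, 86.8 and 259 CPM in MCAO control against 48.2, 57.4, 44.0, 135 and 68.2 CPM in sham control libraries. The groups overlapped in both genotypes, and the log2 fold change passed in Vdr-cKO (1.27, edgeR adjusted p = 0.0165) but not in control mice (0.83, edgeR adjusted p = 0.0764). Rpl7a, Rpl23a and Rpl24, all of the large subunit and with 18.8%, 14.3% and 18.3% of words unique, rose in control mice (1.03, 0.71 and 0.85) and did not pass in Vdr-cKO mice (0.45, 1.01 and 0.64, edgeR adjusted p = 0.285, 0.0706 and 0.226). Rpl24 had the lowest level of all canonical members, 3.32, 1.52, 2.63 and 5.86 CPM in MCAO Vdr-cKO against 2.16, 1.39 and 2.85 CPM in sham Vdr-cKO libraries.

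**Figure D3:**
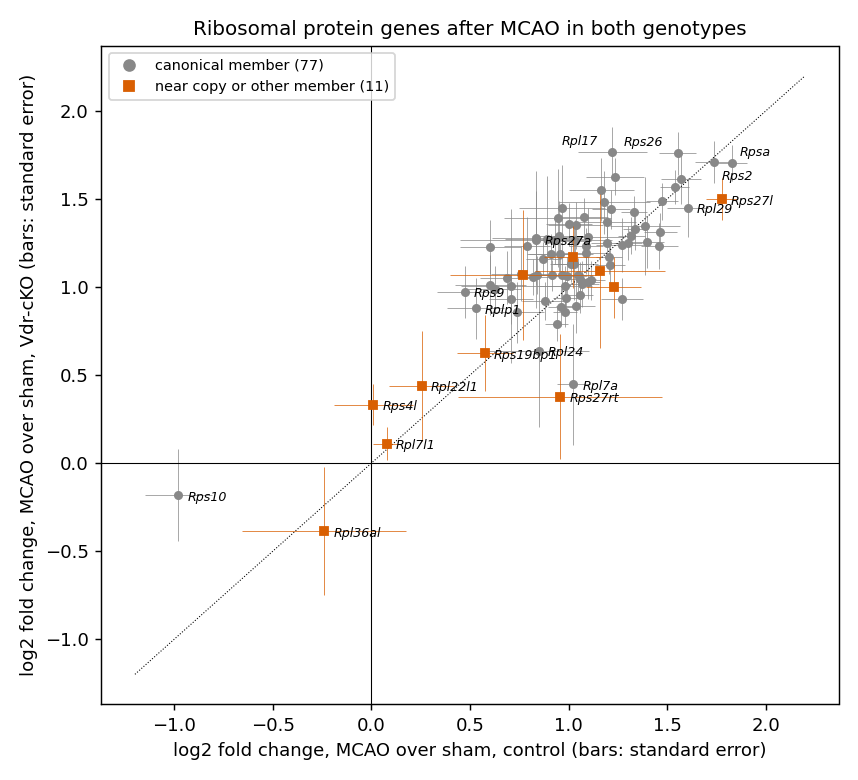
Log2 fold change of MCAO over sham in Vdr-cKO mice (vertical axis) against that in control mice (horizontal axis) for the 77 canonical members (grey circles) and 11 near copies and other members (orange squares), with standard errors as bars and equal change as the dotted line. Most canonical members lie between 0.5 and 1.8 on both axes, and Rps10 and Rpl36al lie below 0 on both axes. Rpl7l1 lies near 0 on both axes, Rps4l at 0.01 in control and 0.33 in Vdr-cKO mice, and Rpl22l1 at 0.25 in control and 0.44 in Vdr-cKO mice.

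The fold changes of the 2 genotypes, which share no library, were alike in rank. Over the 77 canonical members Pearson's r was 0.75 and Spearman's rho 0.62, and 6 of the 10 members with the largest log2 fold change in one genotype were among the 10 largest in the other. This is a description across genes, which are not independent replicates and can share transcript length and sequence. The log2 fold changes had a Spearman's rho with transcript length of 0.05 in Vdr-cKO and 0.00 in control mice, and with the mean level of -0.08 and 0.15. Their SD across members was 0.30 in Vdr-cKO and 0.36 in control mice.

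The near copies were mixed. Rps27l, a paralogue of Rps27 and a known target of p53 (chromosome 9, 66946086 to 66949516, ENSMUSG00000036781), had 58.0, 63.8, 51.6 and 64.6 CPM in MCAO Vdr-cKO against 21.1, 23.4 and 18.4 CPM in sham Vdr-cKO libraries. In control mice it had 45.2, 45.4, 48.7 and 50.7 CPM after MCAO against 13.8, 14.4, 12.9, 13.8 and 13.1 CPM after sham. The 4 groups stood apart without any overlap, in the order MCAO Vdr-cKO, MCAO control, sham Vdr-cKO and sham control. The log2 fold change of MCAO over sham was 1.499 (standard error 0.12, edgeR adjusted p = 3.13e-06) in Vdr-cKO and 1.78 (standard error 0.08, edgeR adjusted p = 2.87e-09) in control mice. 77.6% of its words were unique.

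Rpl7l1, a relative of Rpl7 with 90.8% of its words unique (chromosome 17, 46773907 to 46782672, ENSMUSG00000063888), had 67.3, 60.2, 69.3 and 70.3 CPM in MCAO Vdr-cKO against 67.9, 56.9 and 60.3 CPM in sham Vdr-cKO libraries. In control mice it had 67, 68.6, 68.6 and 64.7 CPM after MCAO against 61.5, 64.8, 55.3, 69.9 and 60.9 CPM after sham. The groups overlapped, with log2 fold changes of 0.11 (standard error 0.09, edgeR adjusted p = 0.333) in Vdr-cKO and 0.08 (standard error 0.07, edgeR adjusted p = 0.339) in control mice. Rps4l, annotated as a transcribed processed pseudogene, had 15.4 ± 0.590 CPM in MCAO Vdr-cKO against 12.2 ± 0.273 CPM in sham Vdr-cKO libraries (SD, n = 4 and 3), a small rise (0.33, edgeR adjusted p = 0.0311). In MCAO control libraries it had 14.3 ± 3.63 CPM, against 13.9 ± 3.20 CPM in sham control libraries (SD, n = 4 and 5), with a log2 fold change of 0.01 that did not pass.

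Rpl22l1, the paralogue of Rpl22, and Rpl36al, the paralogue of Rpl36a, did not pass in either genotype. Their log2 fold changes were 0.44 and -0.39 in Vdr-cKO and 0.25 and -0.24 in control mice, with standard errors of 0.17 to 0.42 over both genes and genotypes. Rps27rt, a retrogene copy of Rps27 with 8.92% of words unique, ranged over 20.6 to 159 CPM within the MCAO control libraries and did not pass either (log2 fold change 0.38 in Vdr-cKO and 0.96 in control mice). Rps19bp1, which is no part of the ribosome but binds Rps19, rose in both genotypes (0.62 in Vdr-cKO, edgeR adjusted p = 0.0284, and 0.58 in control mice, edgeR adjusted p = 0.00383). Of the processed copies Rpl37rt and Rpl6l rose in both, Rps3a2 in Vdr-cKO mice and Rps3a3 in control mice. Over the 11 near copies and others tested, 6 rose in Vdr-cKO (median 0.62) and 5 in control mice (median 0.77). Of all genes tested 29.3% rose in Vdr-cKO and 31.2% in control mice. Rpl39l, a paralogue of Rpl39 of testis, was too low to test at 0.4 to 1.01 CPM in MCAO Vdr-cKO and 0 to 0.297 CPM in sham Vdr-cKO libraries.

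**Figure D4:**
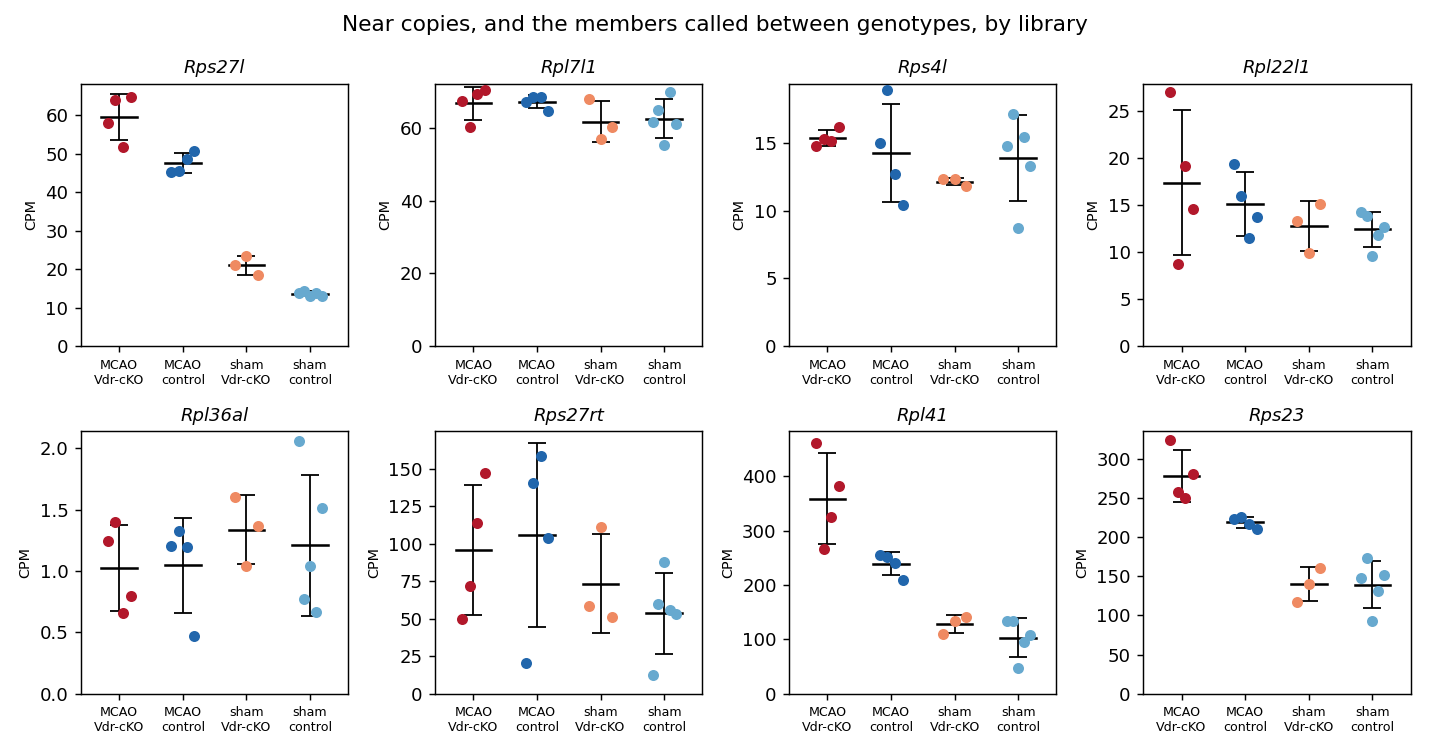
Levels (CPM, linear axes from 0) in each library of 6 near copies and of Rpl41 and Rps23, the canonical members that differed between genotypes after MCAO, with the group mean as a line and the SD as a bar. Rps27l shows 4 separate groups, Rpl7l1 flat levels of 55.3 to 70.3 CPM, and Rps27rt a wide spread within groups.

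Between genotypes few members differed. After MCAO, 2 of 88 members rose in Vdr-cKO against control mice (all genes tested, 3.24%) and 0 fell (all genes, 1.64%), with a median log2 fold change of 0.10. Without adjustment, 11 of the 88 members passed at 0.05 upward and 0 downward, where 2997 of all 15286 genes tested passed in either direction. With adjustment DESeq2 called 5 upward and 0 downward and limma-voom 2 and 0. The T and NK cell markers, of which 0 of 8 were at 0 throughout either group, summed to 7.33 to 17.9 CPM in MCAO Vdr-cKO against 2.23 to 4.20 CPM in MCAO control libraries. Of the 8 monocyte markers 7 had a positive log2 fold change (median 0.86), with 2 called higher and 0 lower. Their summed level was not higher, with 2632 ± 1227 CPM in MCAO Vdr-cKO against 2914 ± 625 CPM in MCAO control libraries (SD, n = 4 each), and the libraries overlapped. The part of these cells in the differences between genotypes was not tested. Rpl41, the shortest ribosomal protein, had 462, 267, 325 and 382 CPM in MCAO Vdr-cKO against 256, 252, 239.8 and 209.8 CPM in MCAO control libraries. Rps23, which contacts the decoding centre, had 324, 257, 249.7 and 281 CPM in MCAO Vdr-cKO against 224, 226, 217 and 210.3 CPM in MCAO control libraries. In both genes every Vdr-cKO library was above every control library, with the closest libraries near each other. The log2 fold changes were 0.60 (standard error 0.15, edgeR adjusted p = 0.0407) for Rpl41 and 0.36 (standard error 0.09, edgeR adjusted p = 0.0472) for Rps23. The count fell to 0 when any single MCAO control library, or MCAO Vdr-cKO replicate 1 or 4, was left out, and was 4 without MCAO Vdr-cKO replicate 2.

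After sham surgery 1 of 88 members rose in Vdr-cKO against control mice (all genes tested, 0.444%) and 0 fell (all genes, 0.0244%), with a median log2 fold change of -0.05. Without adjustment 2 of the 88 members passed at 0.05 in each direction, where 1836 of all 16425 genes tested passed in either direction. With adjustment DESeq2 and limma-voom each called 1 upward and 0 downward. The 1 gene was Rps27l, at 21.1, 23.4 and 18.4 CPM in sham Vdr-cKO against 13.8, 14.4, 12.9, 13.8 and 13.1 CPM in sham control libraries. All 3 Vdr-cKO libraries were above all 5 control libraries (2-sided exact permutation p = 0.0179, the smallest 3 against 5 can give), a log2 difference of 0.60 (standard error 0.11, edgeR adjusted p = 0.0467), and the difference passed without sham control replicate 1 or sham Vdr-cKO replicate 3 but not without any one of the other 6. After MCAO Rps27l was also higher in every Vdr-cKO library (0.34, standard error 0.09), where it did not pass (edgeR adjusted p = 0.0544).

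The effect of MCAO did not differ between genotypes past the threshold for any member. In the interaction 0 of 89 members were higher and 0 lower, where 1.4% and 1.15% of all 17335 genes tested were, with DESeq2 and limma-voom also at 0 and 0. Without adjustment 2562 of all 17335 genes tested passed at 0.05, as did 7 of the 89 members. Among them, with adjusted p from 0.209 to 0.330 by edgeR, Rps10, Rpl36 (0.62), the barely detected Rpl39l and Rps9 (0.49) had a more positive log2 change in Vdr-cKO mice, and Rps27l (-0.28) a less positive one.

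The other genes of the translation machinery moved to differing degrees after MCAO. Fau and Rack1, ribosomal proteins under other names, had 524 ± 36.5 and 585 ± 28.2 CPM in MCAO Vdr-cKO against 198 ± 22.9 and 235 ± 2.16 CPM in sham Vdr-cKO libraries. They rose in both genotypes, by 1.399 and 1.31 in Vdr-cKO and by 1.07 and 1.29 in control mice. Of 19 other mRNAs with TOP motifs, a list that also holds Fau, Rack1 and 5 elongation factors, 18 rose in each genotype (medians 0.98 in Vdr-cKO and 1.07 in control mice), among them Tpt1, a translationally controlled protein (1.53 in Vdr-cKO and 1.42 in control mice), and Eef1a1, the elongation factor that brings aminoacyl-tRNA (1.06 in Vdr-cKO and 1.26 in control mice). Of 8 genes listed under elongation factors, not all of which are elongation factors themselves, 7 rose in each genotype. Of all genes tested 29.3% rose in Vdr-cKO and 31.2% in control mice. The listed gene that fell in both was Eef2k, the kinase that inhibits the elongation factor eEF2, with 128 ± 18.7 CPM in MCAO Vdr-cKO against 266 ± 38.4 CPM in sham Vdr-cKO libraries (log2 fold change -1.06 in Vdr-cKO and -0.98 in control mice).

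Of 31 initiation factor genes 23 rose and 0 fell in Vdr-cKO and 26 rose and 1 fell in control mice (medians 0.68 and 0.72), among them Pabpc1, the poly(A)-binding protein (0.98 in Vdr-cKO and 1.14 in control mice). Of 56 genes for ribosomal RNA synthesis and ribosome assembly, 23 rose and 3 fell in Vdr-cKO (median 0.23), and 26 rose and 8 fell in control mice (median 0.25). Npm1 and Ncl, abundant nucleolar proteins, rose by 0.91 and 0.81 in Vdr-cKO and by 1.08 and 1.03 in control mice. Of 11 snoRNA host genes tested, whose spliced RNAs also carry TOP motifs, 4 rose and 2 fell in Vdr-cKO (median 0.08) and 2 rose and 4 fell in control mice (median 0.11). Of 20 genes of mTORC1 and translation control, 6 rose and 3 fell in Vdr-cKO (median -0.06) and 6 rose and 5 fell in control mice (median 0.07). For the assembly, snoRNA host and mTORC1 lists these counts stand beside 29.3% higher and 28.8% lower over all genes tested in Vdr-cKO and 31.2% higher and 32.3% lower in control mice, and no difference between lists was tested. Eif4ebp1, the inhibitor of eIF4E that mTORC1 phosphorylates, rose (2.19 in Vdr-cKO and 1.63 in control mice), and Pdcd4, an inhibitor of eIF4A, fell (-0.93 in Vdr-cKO and -0.71 in control mice).

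Other tested genes with an annotated principal transcript under 1000 bases had median log2 fold changes of 0.24 in Vdr-cKO and 0.09 in control mice. The median length of such transcripts of the canonical members was 886 bases. Other large complexes rose as well: 36 of 39 proteasome subunit genes in Vdr-cKO (median 0.81) and 34 in control mice (median 0.74), 62 of 83 nuclear genes of the respiratory chain in Vdr-cKO (median 0.54) and 65 in control mice (median 0.67), and 44 of 77 mitochondrial ribosomal protein genes in Vdr-cKO (median 0.42) and 42 in control mice (median 0.33). Of all genes tested 29.3% rose in Vdr-cKO and 31.2% in control mice. The medians of these complexes were below those of both cytosolic subunits, without a test of that difference.

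**Figure D5:**
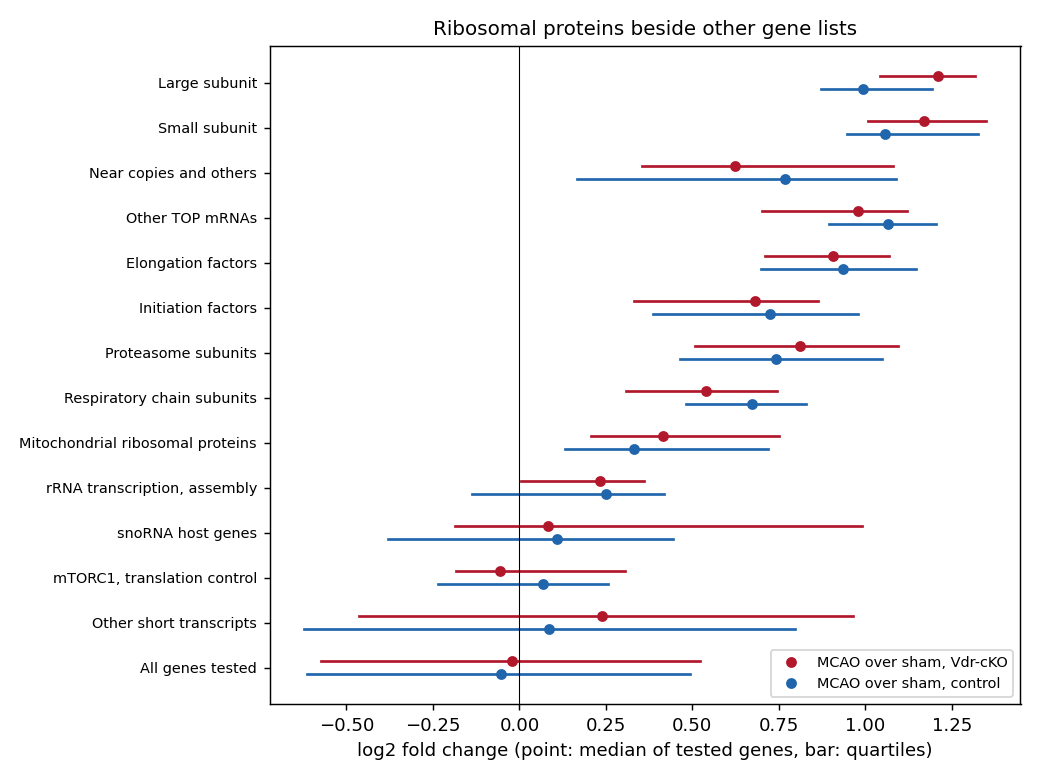
Median log2 fold change of MCAO over sham (points) and quartiles (bars) for the 2 subunits, the near copies, other lists and all genes tested, in Vdr-cKO (red) and control mice (blue). The subunits and the other TOP mRNAs have medians of 0.98 to 1.21, and the ribosome assembly, snoRNA host and translation control lists have medians of -0.06 to 0.25.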

How the data were processed

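RNA from brain microglia of 16 libraries was sequenced. The deposited table holds the authors' whole-number counts per gene, with no normalization. The submitters' processing notes name bcl2fastq, HISAT2 2.1.0, TopHat, limma and GRCm38, in no stated role. The counting tool, its annotation and its use of strand were not given in the sources used here. The labels name rRNA depletion and the methods poly(A) selection, and the labels and methods also differ on how cells were isolated. These were not reconciled, and their effect on levels was not tested. Libraries held 13795946 to 17836796 counts, 0 count columns were left unmapped, and 240 rows had no symbol.

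Each comparison was fitted alone with edgeR 4.0.16 (R 4.3.3; filterByExpr, TMM, quasi-likelihood test) on all genes, with Benjamini-Hochberg adjustment and a threshold of 0.05. Genotype by surgery was fitted on all 16 libraries. Alternatives used DESeq2 1.42.0, limma-voom 3.58.1, other scalings and filters, and left-out libraries. The steps were tested on simulated data. Values in one sample are CPM, and errors are SD over libraries. Nothing states that each library came from its own mouse, so p-values measure the spread between libraries only. Same-numbered libraries were not paired: their deviations had correlations of -0.43 to 0.39. Counting error is small for members at these depths except the lowest.

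Members and lists were chosen with earlier results of these data known, and the division into canonical members and near copies was partly made after values were seen. The genes named are the 6 members of highest mean CPM, members with a role of their own, near copies, up to 6 members with the largest and 6 with the smallest log2 fold change among those called without overlap in each comparison, up to 6 in the interaction, and up to 4 of each other list by adjusted p. Members without a call were added after their values were seen, and some genes under the rule are not reported here. Word uniqueness came from GENCODE M21 principal transcripts and start sites from RefSeq (GRCm38.p6).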

Additional observations from a re-analysis of the deposited data

Results flagged for a closer look

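Single libraries stood apart from the rest of their group in 9 of 129 groups of 4 or 5 values examined (42 members and the summed share of all members, each in the 3 groups of that size), by Dixon's test at the 95% level. Chance alone flags about 1 in 20 groups. In MCAO Vdr-cKO mice, Rps6 stood at 404 CPM in replicate 3, below the other libraries, and Rpl39 at 248 CPM in replicate 4, above them. In MCAO control mice 3 of the values were in replicate 4, with Rps27a at 259 CPM above its group and Rpl36al at 0.473 CPM and Rpl36 at 80.5 CPM below theirs, and Rpl24 stood at 5.53 CPM in replicate 1, above the rest. In sham control mice Rps27a stood at 135.0 CPM in replicate 4, above its group, and Rps15 at 75.7 CPM and Rpl23a at 31.3 CPM in replicate 3, below theirs. Replicate 3 was also the sham control library with the lowest level of most canonical members.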

How the results depend on the processing

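The count of members higher after MCAO was 63 to 81 over all alternatives in Vdr-cKO mice, and 75 to 81 with any 1 library left out. In control mice it was 79 to 81 with any 1 library left out, with 1 to 1 lower, and it fell outside 1.5 times only with an absolute log2 fold change above 1 (47 higher and 0 lower). The median over members tested was 0.99 to 1.22 in Vdr-cKO and 0.84 to 1.09 in control mice. Upper quartile scaling moved the median of all genes to -0.20 in Vdr-cKO and -0.24 in control mice and the share of called genes that were higher to 37.9% and 36.3%, against 50.4% and 49.2% with TMM. A scaling shifts the log2 fold changes of all genes nearly alike, and the canonical median lay 1.21 above that of all genes in Vdr-cKO and 1.09 above it in control mice.

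Calls between genotypes depended on the settings. After MCAO 0 members were higher at an adjusted p under 0.01 or an absolute log2 fold change above 1. With DESeq2 size factors or the replicate block 1 was higher, Rpl41 in both settings. With all 16 libraries in 1 fit the 1 member was Rps27l, and neither Rpl41 nor Rps23 passed. The count was 4 without a filter and likewise 4 where every library needed 10 counts, 5 with DESeq2, and 0 to 4 with 1 library left out. Without MCAO Vdr-cKO replicates 1 and 2 together 1 member, Rpl7a, was lower (-0.46), and Rpl41 (0.58) and Rpl36 (0.46) were higher. After sham 0 were higher at 0.01, with the log2 limit of 1, with DESeq2 size factors, with the replicate block and without sham control replicates 2, 4 and 5, and 0 to 1 with 1 library left out. In the interaction 0 to 1 were higher with 1 library left out, the 1 being Rpl36 without sham control replicate 3 (0.74, edgeR adjusted p = 0.0490). With the replicate block Rps27a and Rps27rt also passed after MCAO in control mice, and Rps4l and Rps19bp1 did not pass in Vdr-cKO mice.

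Directions turned for members near 0. Rpl7l1 was -0.064 in Vdr-cKO and -0.10 in control mice with upper quartile scaling, where the medians of all genes moved as given above. In control mice Rps4l was -0.17 with that scaling, -0.029 with 10 counts required in every library and -0.14 to 0.15 with 1 library left out, and Rpl36al was -0.40 to 0.047 with 1 library left out. Depth limits the members of lowest counts, and shared sequence limits the others. The cause of the changes under settings other than scaling was not tested.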
